A study of Mus musculus with 6 samples.

Results

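The genes of 6 secreted or membrane-bound cytokines were followed through 6 RNA-seq libraries of a mouse thymoma cell line. They were Csf1, Csf2 and Csf3, which encode the macrophage, granulocyte-macrophage and granulocyte colony-stimulating factors, Il34, the other ligand of the macrophage factor's receptor, Kitl, which encodes stem cell factor, and Il23a, which encodes the subunit that is particular to the cytokine interleukin-23. They were chosen by symbol with earlier results of these data known, so counts set beside the share of all loci are descriptions only. Each symbol had a single row, so that they made up 6 of the 25001 loci, of which 22601 carried a symbol. All libraries came from 427.1.86 cells (427 cells) or from derivatives of them labelled SPPL2b KD (SP2bKD), at passage 4-10. Cells carrying the empty pSUPER vector, with the genotype given as wild type, had no serum for 2 h and then received DMSO or 1 µM PMA for 2 h, and SP2bKD cells received DMSO or PMA likewise. PMA is a phorbol ester that induces shedding of membrane proteins. In the remaining pair of libraries SP2bKD cells were transfected with a GFP vector alone (GFP) or together with Flag-EICD (GFP plus EICD), the intracellular domain of the membrane serine protease epithin/PRSS14, and were sorted for GFP. For this pair the labels give no serum withdrawal and no DMSO. The study describes a stable shRNA and names the transfected cells as 1 clone, whereas the labels give an siRNA and name no clone. Each condition had 1 library, so no spread between replicates was measured, no test was made, and every difference below compares single libraries.

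Colony-stimulating factors are named for the blood cell colonies that they support in culture. Cells outside the blood lineage, epithelial and stromal cells among them, make them as well, usually at low levels at rest and at high levels after inflammatory or growth factor signals. Csf2, Csf3 and interleukin-23 act through cytokine receptors that use JAK kinases and STAT factors, whereas the receptors of Csf1, Il34 and Kitl are themselves tyrosine kinases. Csf1 and Kitl are made as membrane-anchored forms that proteases can release from the cell surface.

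The deposited value was FPKM, fragments per kilobase of exon scaled to the fragments of the library, which allows levels to be compared between genes. By an estimate from the lowest FPKM values, the libraries held about 25500000 to 30400000 fragments, and 10555 to 10873 loci reached an FPKM of 1. The gene targeted in SP2bKD cells, Sppl2b, was not lower in these libraries: its FPKM was 9.90 and 6.86 in 427 cells with DMSO and PMA, 13.4 and 9.37 in the libraries labelled SP2bKD with DMSO and PMA, and 11.4 and 13.2 in the GFP and GFP plus EICD libraries. The study reports a knockdown of Sppl2b mRNA by real-time PCR, and less EICD, in its SP2bKD lines. The label is used below only as a name. St14, the gene of epithin/PRSS14, had an FPKM of 614.5 in the GFP plus EICD library and 69.6 to 105 in the others. The EICD construct carries part of the St14 coding sequence, so this value does not separate its reads from those of the cells' own gene. Of the epithelial markers 6 of 6 reached an FPKM of 1, with a summed FPKM of 6320.81 to 15017. Of the T cell and haematopoietic markers 0 of 6 did, the highest value being 0.269, and Cd3e and Cd4 were listed at 0 throughout. Of the thymic epithelial markers Foxn1 and Pax9 did, and Aire and Pax1 were listed at 0 throughout. A lower share of cells that make a transcript and less transcript per cell cannot be told apart in such bulk libraries.

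The genes lie on 4 chromosomes of GRCm38, and those that share a chromosome lie far apart. Csf1 (ENSMUSG00000014599) spans chr3:107741048-107760583 on the minus strand, Csf2 (ENSMUSG00000018916) chr11:54247271-54249667 on the minus strand and Csf3 (ENSMUSG00000038067) chr11:98700158-98703843 on the plus strand. Il23a (ENSMUSG00000025383) spans chr10:128296140-128298084 on the minus strand, Il34 (ENSMUSG00000031750) chr8:110741462-110805924 on the minus strand and Kitl (ENSMUSG00000019966) chr10:100015630-100100413 on the plus strand. The deposited models of Csf2 and Il23a were the annotated ones, and those of the other genes held newly assembled isoforms. Annotated genes lie on the opposite strand over Csf2 (Gm12223) and over Il34 (Gm15894 and Gm15895), and since the use of strand was not stated, reads of the partners cannot be told apart from theirs.

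Short-lived cytokine mRNAs are known for AU-rich elements in the 3′ untranslated region, where the pentamer ATTTA and the nonamer TTATTTATT (written as DNA) are bound by proteins that control mRNA decay. The pentamer was counted on the mRNA strand of the longest GENCODE M21 coding transcript of each gene (GRCm38), with overlapping copies counted separately. Csf2 had 9 pentamers and 4 nonamers in 317 bases, or 28.4 pentamers per kilobase, and 0% of 1706 untranslated regions within 20% of its length held as many pentamers. Il23a had 6 pentamers and 1 nonamer in 657 bases, and 1.47% of 2248 regions of like length held as many pentamers. Csf3 had 6 pentamers and 0 nonamers in 669 bases, and 1.64% of 2259 regions of like length held as many. These 3 genes thus had more pentamers than nearly all regions of their length.

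Csf1, Kitl and Il34 were closer to other genes in this measure. Csf1 had 4 pentamers in 2111 bases, a number that 49.1% of 2720 regions of like length reached. Kitl had 14 pentamers in 4435 bases, a number that 14.4% of 1268 regions of like length reached. Il34 had 1 pentamer in 605 bases, a number that 56.9% of 2131 regions of like length reached. None of the 3 had the nonamer, which 7.57% of the 20981 genes with such a region held. The stretch of 30 bases with the most pentamers is printed for each gene to show the difference between the clustered copies of Csf2 and the single copy of Il34, 5′ to 3′ on the mRNA strand with the pentamers in capitals. The stretches lie at chr11:54247329-54247358 (Csf2, minus strand), chr11:98702984-98703013 (Csf3, plus), chr10:128296187-128296216 (Il23a, minus), chr3:107741109-107741138 (Csf1, minus), chr10:100097931-100097960 (Kitl, plus) and chr8:110741845-110741874 (Il34, minus).
Csf2: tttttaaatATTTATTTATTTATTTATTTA
Csf3: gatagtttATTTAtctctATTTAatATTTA
Il23a: agtatagatgatggttATTTAttctATTTA
Csf1: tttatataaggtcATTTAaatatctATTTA
Kitl: ccttctcagttttgtgacttgATTTATTTA
Il34: tggttcctttttctattaaatggccATTTA
The Csf2 stretch held 5 pentamers, that of Csf3 3, those of Il23a, Csf1 and Kitl 2 each and that of Il34 1. A match is a description of letters and not of decay, which was not measured.

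**Figure D1:**
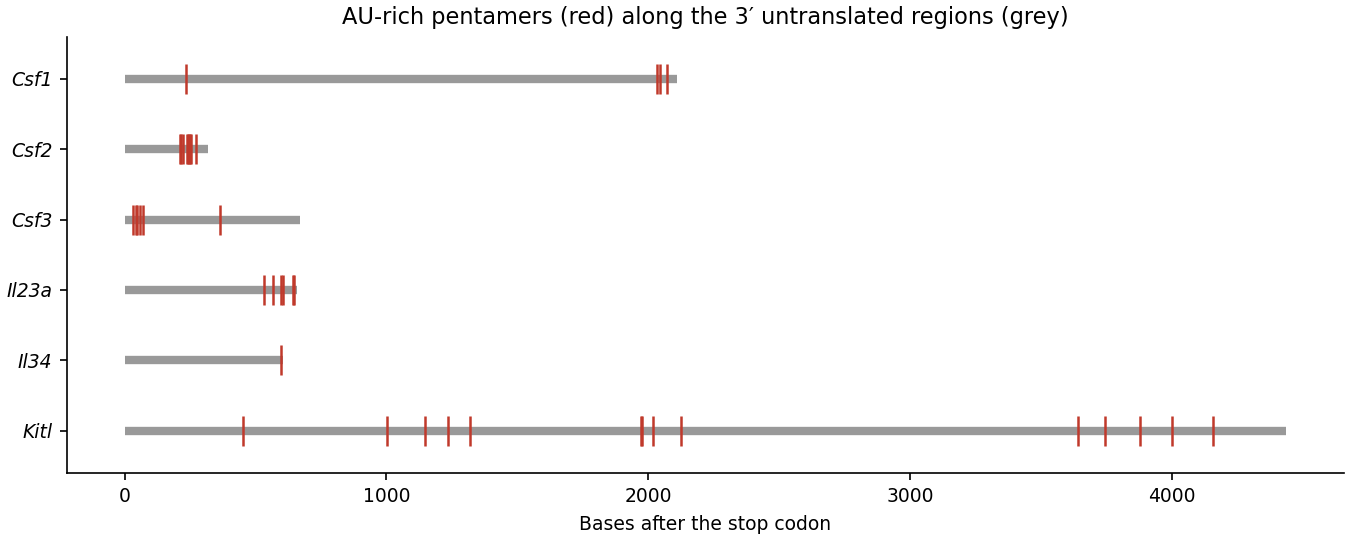
Positions of the pentamer ATTTA (red marks) along the 3′ untranslated region (grey bars) of the longest coding transcript of each gene, in bases after the stop codon. The 9 pentamers of Csf2 lie close together in a region of 317 bases, whereas the 14 of Kitl are spread over 4435 bases.

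Promoter windows of 250 bases before to 50 bases after the RefSeq start site (GRCm38.p6) were at hand for Csf1, Csf2 and Kitl. Csf3, Il23a and Il34 had no entry. The windows were searched on both strands for the AP-1 motif TGANTCA, the CRE motif TGACGTCA, the NF-kB motif, the TATA motif TATAAA and the GC box GGGCGG, which were held by 7.81%, 1.79%, 4.51%, 13.6% and 35.7% of 32851 windows. The windows of Csf1 and Kitl are printed because these genes stood on opposite sides with PMA, as given below. Each is printed 5′ to 3′ on the strand of the gene, with matches in capitals. The Csf1 window is chr3:107760420-107760719 on the minus strand and the Kitl window chr10:100015571-100015870 on the plus strand.
Csf1: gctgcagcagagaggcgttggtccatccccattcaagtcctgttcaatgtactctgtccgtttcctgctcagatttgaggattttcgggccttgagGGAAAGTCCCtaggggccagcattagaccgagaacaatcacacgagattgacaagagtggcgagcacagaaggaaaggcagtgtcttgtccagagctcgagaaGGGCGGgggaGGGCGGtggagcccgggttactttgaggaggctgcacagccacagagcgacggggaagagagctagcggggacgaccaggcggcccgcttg
Kitl: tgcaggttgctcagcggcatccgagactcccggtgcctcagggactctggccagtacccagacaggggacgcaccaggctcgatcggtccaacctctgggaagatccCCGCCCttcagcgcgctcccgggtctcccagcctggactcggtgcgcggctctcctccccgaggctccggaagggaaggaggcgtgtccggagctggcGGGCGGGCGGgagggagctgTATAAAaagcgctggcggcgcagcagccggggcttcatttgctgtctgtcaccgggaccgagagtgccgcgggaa
The Csf1 window held an NF-kB match on the minus strand, starting 154 bases before the start site, and GC boxes that began 51 and 41 bases before it. The Kitl window held a TATA match 25 bases before the start site and 3 GC boxes, of which the copies at 45 and 41 bases overlap. The GENCODE start of Kitl, at base 100015630, lies upstream of the RefSeq one at 100015821 and of these matches. The Csf2 window held a single GC box, but the GENCODE start of Csf2 lies 232 bases downstream of the RefSeq one, outside that window, so its sequence is not shown. AP-1 and CRE letters were absent from the 3 windows, which says nothing of sites elsewhere.

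At rest, in 427 cells with DMSO, Csf1 had the highest level of the 6 genes, and Csf2 the lowest. Csf1 had an FPKM of 18.2 and Il23a of 6.10, next to Kitl at 5.51, Il34 at 3.06 and Csf3 at 1.54, with Csf2 at 0.0578, an estimated 1.31 fragments. With PMA the order changed to Csf3 at an FPKM of 80.5, Csf1 at 54.7, Il23a at 26.7, Csf2 at 11.1, Kitl at 3.32 and Il34 at 3.11. Csf3 had thus moved from the fifth place to the first. Neighbours in these orders stood as little as 1.07-fold apart for Kitl over Il34 with PMA and 1.11-fold for Il23a over Kitl with DMSO, and without replicates neither order can be called firm at those places.

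Csf1 was the highest of the 6 in every library but 427 cells with PMA. Its FPKM was 13.8 and 60.2 in the libraries labelled SP2bKD with DMSO and PMA, and 10.7 and 19.6 in the GFP and GFP plus EICD libraries. Il23a, second to Csf1 in these 4 libraries, had an FPKM of 6.27 and 21.4 with DMSO and PMA, and 6.57 and 13.6 with GFP and GFP plus EICD. Its values in the 3 libraries without PMA or EICD lay between 6.10 and 6.57, the narrowest such range of the 6 genes relative to its level.

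Csf3 and Csf2 were low outside PMA in all libraries. Csf3 had an FPKM of 0.453 and 14.1 in the libraries labelled SP2bKD with DMSO and PMA, and 0.505 and 3.05 with GFP and GFP plus EICD. Csf2 was listed at 0 with DMSO and had an FPKM of 2.67 with PMA in the libraries labelled SP2bKD, and 0.0620 and 0.450 with GFP and GFP plus EICD. The lowest library of each gene was thus a resting library labelled SP2bKD, and the highest was 427 cells with PMA. From lowest to highest, Csf3 spanned 178-fold, more than Kitl at 11-fold, Csf1 at 5.63-fold, Il23a at 4.37-fold and Il34 at 4.30-fold, and no fold is given for Csf2, which was listed at 0 in 1 library.

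Il34 and Kitl followed neither pattern. Il34 had an FPKM of 1.65 and 3.04 in the libraries labelled SP2bKD with DMSO and PMA, and 0.921 and 0.725 with GFP and GFP plus EICD, so that it was lowest in the transfected pair. Kitl had an FPKM of 1.05 and 0.501 in the libraries labelled SP2bKD with DMSO and PMA, and 4.58 and 4.98 with GFP and GFP plus EICD. It was thus lowest in the untransfected libraries labelled SP2bKD and near the 427 level in the transfected ones.

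**Figure D2:**
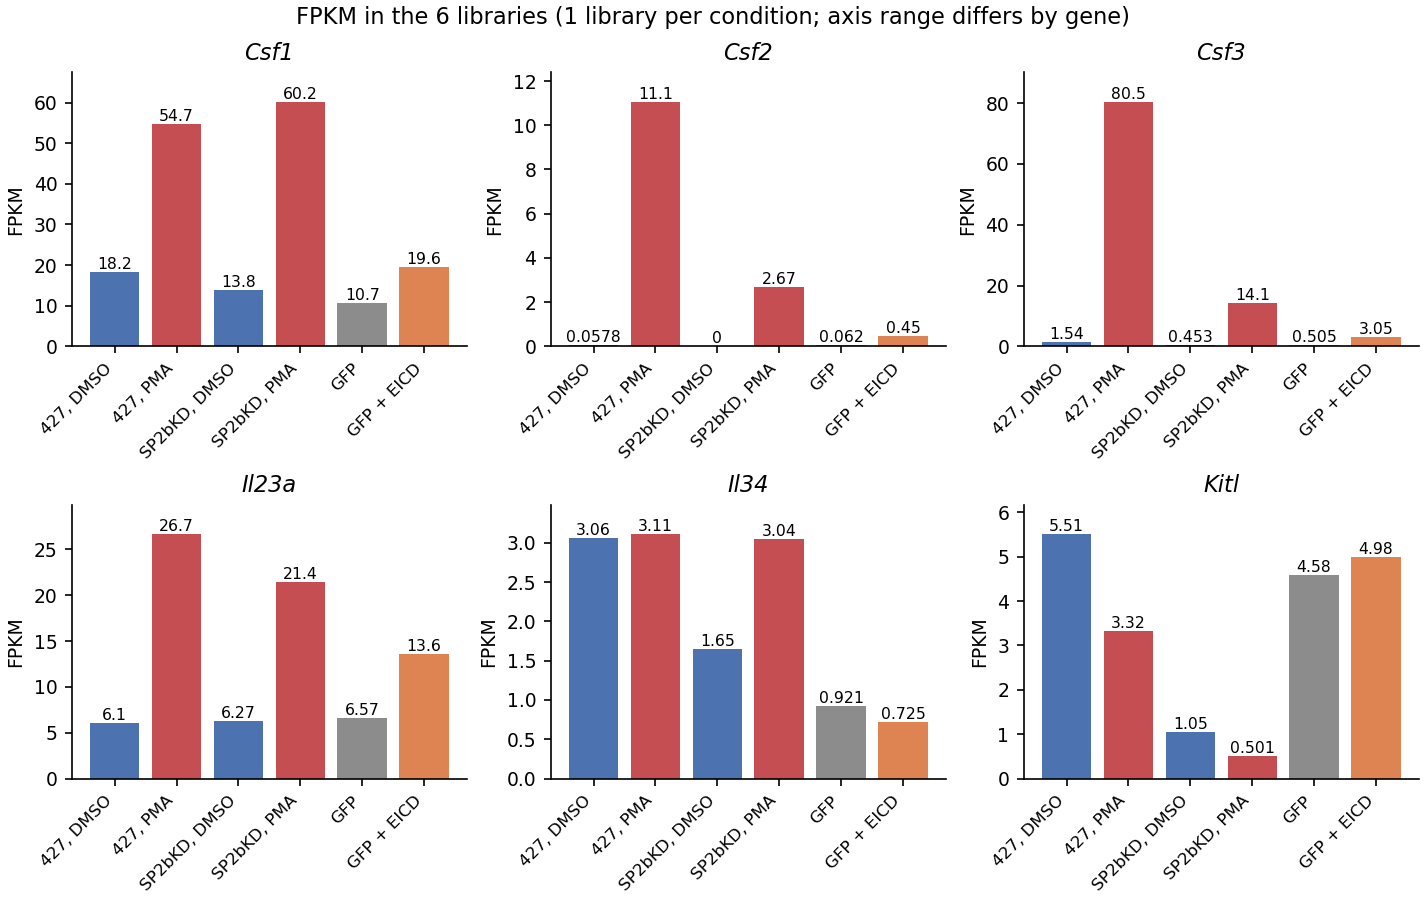
FPKM of each gene (bars, axis from 0 with its own range per panel) in the 6 libraries, 1 library per bar, with no error bars since no condition had replicates. Csf1, Csf2, Csf3 and Il23a were highest in the PMA libraries, with Csf3 at 80.5 in 427 cells with PMA, while Kitl was at 1.05 and 0.501 in the untransfected SP2bKD libraries.

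To ask which of these genes differed with PMA, under which epithin/PRSS14 is shed, the PMA library was compared with the DMSO library of the same cells. Ratios are on the log2 scale with 0.01 FPKM added to each library, and a gene was counted where either of the 2 libraries reached an FPKM of 1. A gene can thus enter through its higher library alone, as Csf2 did in 427 cells, which favours a ratio past 2-fold. The shares of all loci carry the same filter. In 427 cells 4 of the 6 genes (Csf1, Csf2, Csf3 and Il23a) were more than 2-fold higher with PMA and 0 were more than 2-fold lower, where 3.91% of 10643 loci were higher and 4.67% lower. Csf3 stood at 80.5 against 1.54 FPKM, a log2 ratio of 5.70 (51.9-fold) and the 11th highest of all loci. Csf2 stood at 11.1 against 0.0578 FPKM, and its log2 ratio of 7.35 rests on about 1 fragment in the DMSO library (95% counting interval 4.87 to 9.83 from the estimated fragments, covering counting error only). The interval is a rough approximation at so few fragments, and as these are upper estimates it is if anything too narrow. With 1 FPKM added to both libraries the log2 ratio was 5.0 for Csf3 and 3.51 for Csf2. Of the 6 epithelial markers 1, Krt18, was also more than 2-fold higher (log2 ratio 1.26), and its part in these results was not tested.

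Il23a and Csf1 stood further down but above most loci. Il23a was at 26.7 against 6.10 FPKM, a log2 ratio of 2.13 (4.37-fold, 112th of 10643 loci). Csf1 was at 54.7 against 18.2 FPKM, a log2 ratio of 1.59 (3.01-fold, 189th). Il34 had a log2 ratio of 0.03, which became −0.21 when each library was scaled to the same FPKM sum. Kitl had a log2 ratio of −0.73 (1.66-fold lower), inside the range of −0.97 to 0.82 that held the middle 90% of loci. The median over all loci was −0.12, so Il34 lay near the middle of all loci.

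In the libraries labelled SP2bKD, the same 4 genes were more than 2-fold higher with PMA, and 1 gene, Kitl, was more than 2-fold lower, where 3.51% of 10624 loci were higher and 5.69% lower. Csf3 was at 14.1 against 0.453 FPKM, a log2 ratio of 4.93 (30.5-fold, 14th of all loci), which was 3.38 with 1 FPKM added to both libraries. Csf2 was at 2.67 FPKM against a listed 0, an estimated 63.6 fragments against 0, and no fold is given. Both were thus barely detected without PMA, and both passed the FPKM of 1 only through the PMA library.

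Csf1 was at 60.2 against 13.8 FPKM, a log2 ratio of 2.12 (4.36-fold, 90th). Il23a was at 21.4 against 6.27 FPKM, a log2 ratio of 1.77 (3.42-fold, 131st). Il34 was at 3.04 against 1.65 FPKM, a log2 ratio of 0.88 (1.84-fold), just above the 95th percentile of all loci at 0.81. Kitl was at 0.501 against 1.05 FPKM, a log2 ratio of −1.05 (2.07-fold lower), just below the 5th percentile at −1.04. The count of Kitl as lower is the least firm of the PMA results, as it passed the FPKM of 1 only through the DMSO library. Its ratio was between −0.95 and −0.45 under 4 other settings.

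The PMA ratio of 427 cells minus that of the cells labelled SP2bKD was taken for the 5 genes above 0 in all 4 libraries. It was 0.77 for Csf3 (1.62 with 1 FPKM added to each library), higher than in 96.8% of the 10791 loci with such a value, and −0.85 for Il34, where 1.45% of loci were lower. For Csf1 it was −0.53, where 4.26% of loci were lower. Il23a at 0.35 and Kitl at 0.32 lay inside the range of −0.49 to 0.59 that held the middle 90% of loci. The genes thus differed among themselves, with Csf1 and Il34 showing the larger PMA ratio in the cells labelled SP2bKD and Csf3 in 427 cells. The median of the 5 genes was 0.32, against −0.00 over all loci, and was −0.14 with 1 FPKM added to each library.

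**Figure D3:**
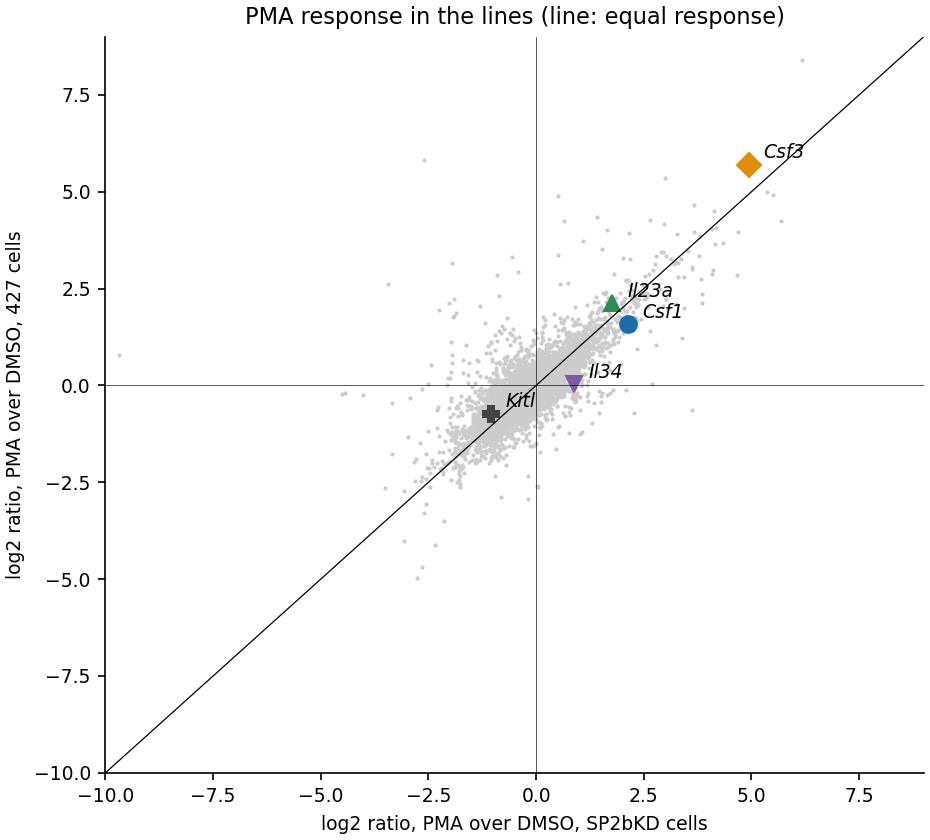
Log2 ratio of PMA to DMSO in 427 cells (vertical axis) against that in SP2bKD cells (horizontal axis), 1 library per condition, for 5 of the genes (coloured marks) and 10791 loci (grey points). Csf2 is not drawn because it was listed at 0 in SP2bKD cells with DMSO. Csf3 lies above the line of equal ratios and Csf1 and Il34 below it.

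The libraries labelled SP2bKD were next compared with 427 cells, a comparison meant to separate cells by SPPL2b, although the FPKM of Sppl2b was not lower in them. These ratios use the same libraries as the PMA ratios and are not independent of them. With DMSO, 0 of the 5 genes that passed the FPKM of 1 were more than 2-fold higher and 2 were lower, where 3.11% of 10706 loci were higher and 2.76% lower. Kitl was at 1.05 against 5.51 FPKM, a log2 ratio of −2.38 (5.21-fold lower), and 0.635% of loci had a lower ratio. Csf3 was at 0.453 against 1.54 FPKM, a log2 ratio of −1.74 (3.35-fold lower), on an estimated 16.8 against 61.6 fragments, but within 2-fold at −0.81 with 1 FPKM added to both libraries and at −0.72 with each library scaled to the same FPKM sum. Under these settings Kitl was at −1.67 and −1.37. Scaling to the sum put the median of all loci at 1.01, and Csf3 and Kitl remained below that median. Csf3 passed the FPKM of 1 only through the 427 library. Of the 6 epithelial markers 1 was more than 2-fold higher here, Krt8 at 310.8 against 80.1 FPKM, and 0 were lower, and its part in these results was not tested.

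The other genes were within 2-fold. Il34 had a log2 ratio of −0.88 and Csf1 of −0.40, and both turned positive, to 0.08 and 0.57, when each library was scaled to the same FPKM sum. Il23a had a log2 ratio of 0.04, which was −0.02 and −0.01 with upper quartile and median scaling. Csf2 did not pass the FPKM of 1. Of the summed FPKM, 93.9% in 427 cells with DMSO fell on 10 loci and 88.2% did in the library labelled SP2bKD with DMSO, and scaling to the sum moved the median of all loci by 0.97. Relative to that median, at 1.01 under this scaling, Csf1 and Il34 remained below it.

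With PMA, 0 of 6 genes were more than 2-fold higher in the library labelled SP2bKD and 3 were lower, where 2.19% of 10518 loci were higher and 2.75% lower. Kitl was at 0.501 against 3.32 FPKM (log2 ratio −2.70, 6.52-fold lower, and −1.53 with 1 FPKM added). Csf3 was at 14.1 against 80.5 FPKM (log2 ratio −2.51, 5.70-fold lower). Csf2 was at 2.67 against 11.1 FPKM (log2 ratio −2.05, 4.14-fold lower), on an estimated 63.6 against 269 fragments. With 0.01 FPKM added, the 3 genes were thus lower in the library with the SP2bKD label by more than 4-fold each. Under 1% of loci had a lower ratio than any of them. With 1 FPKM added, Kitl at −1.53 and Csf2 at −1.72 were lower by less than 4-fold. Kitl passed the FPKM of 1 only through the 427 library, which favours a lower ratio.

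Csf1, Il23a and Il34 did not follow. Their log2 ratios were 0.14, −0.32 and −0.03, inside the range of −0.67 to 0.66 that held the middle 90% of loci. Scaling each library to the same FPKM sum moved the median of all loci by 1.25 and these ratios to 1.38, 0.93 and 1.18, so that 2 of the 6 genes were then more than 2-fold higher and 2 lower, and Il23a and Il34 turned from negative to positive. Csf3 at −1.26 and Kitl at −1.37 remained more than 2-fold lower under that scaling, and Csf2 was at −0.79. The epithelial marker Krt8 was more than 2-fold higher here too (log2 ratio 1.56).

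To ask which genes differed when EICD was supplied, the GFP plus EICD library was compared with the GFP library, with 0.01 added to the EICD library only. Of the 4 genes that passed the FPKM of 1, 2 (Csf3 and Il23a) were more than 2-fold higher and 0 were lower, where 3.58% of 10682 loci were higher and 0.506% lower. Csf3 passed only through the EICD library. Csf3 was at 3.05 against 0.505 FPKM, an estimated 127 against 18.2 fragments, and its log2 ratio of 2.60 (6.05-fold) was the 23rd highest of all loci, and was 1.43 with 1 FPKM added to both libraries. Il23a was at 13.6 against 6.57 FPKM, a log2 ratio of 1.05 (2.08-fold), which was 0.95 with 1 FPKM added to both libraries and 0.88 with scaling to the sum. Csf1 was at 19.6 against 10.7 FPKM, a log2 ratio of 0.87 (1.83-fold), higher than in 95.3% of loci.

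Kitl and Il34 lay near the bulk of loci, whose median was 0.07. Kitl was at 4.98 against 4.58 FPKM, a log2 ratio of 0.12, which was −0.04 with scaling to the sum. Il34 was at 0.725 against 0.921 FPKM, a log2 ratio of −0.33. Csf2 was at 0.450 against 0.0620 FPKM, an estimated 10.6 against 1.26 fragments, so that its log2 ratio of 2.89 has a 95% counting interval of 0.23 to 5.55, for counting error only. This interval too is rough and if anything too narrow, so its lower end above 0 is not firm. Of the 6 epithelial markers 1, Krt8, was more than 2-fold lower with EICD (log2 ratio −1.02). The 4 genes that were higher with PMA were also those of the 6 with the 4 highest ratios with EICD, but at smaller size. Among them, Csf2 did not pass the FPKM of 1 with EICD, and Csf1 was under 2-fold. How often loci higher with PMA were also higher with EICD was not counted over all loci, so this overlap is a description only. The GFP plus EICD level of Csf3 was 3.05 FPKM, below the PMA levels of 14.1 and 80.5. The EICD and PMA comparisons have no library in common, but the cells also differed in transfection and sorting. Serum withdrawal was given in the labels only for the PMA and DMSO libraries.

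The GFP library itself was compared with the untransfected library labelled SP2bKD with DMSO to see how transfected and untransfected cells of the same genotype label differed in these genes. Of the 4 genes that passed the FPKM of 1, 1 was more than 2-fold higher and 0 were lower, where 3.56% of 10687 loci were higher and 4.14% lower. The gene was Kitl, at 4.58 against 1.05 FPKM, a log2 ratio of 2.12 (4.33-fold, 93rd of all loci), which was 1.45 with 1 FPKM added to both libraries. Of the 6 epithelial markers 2 were more than 2-fold higher in the same comparison, Krt5 (log2 ratio 1.33) and Krt14 (1.10), and 1 was lower, Krt8 (−1.12), and their part in the result of Kitl was not tested. Il34 was lower, at 0.921 against 1.65 FPKM (log2 ratio −0.84). Csf1 had a log2 ratio of −0.37 and Il23a of 0.07, and Csf3, at 0.505 against 0.453 FPKM, did not pass. The lower level of Kitl in the untransfected libraries labelled SP2bKD was thus not shared by the transfected libraries that carry the same genotype label. The labels give serum withdrawal and DMSO for the untransfected library compared here and not for the GFP library. The clone, transfection, sorting, serum withdrawal and DMSO cannot be told apart here.

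**Figure D4:**
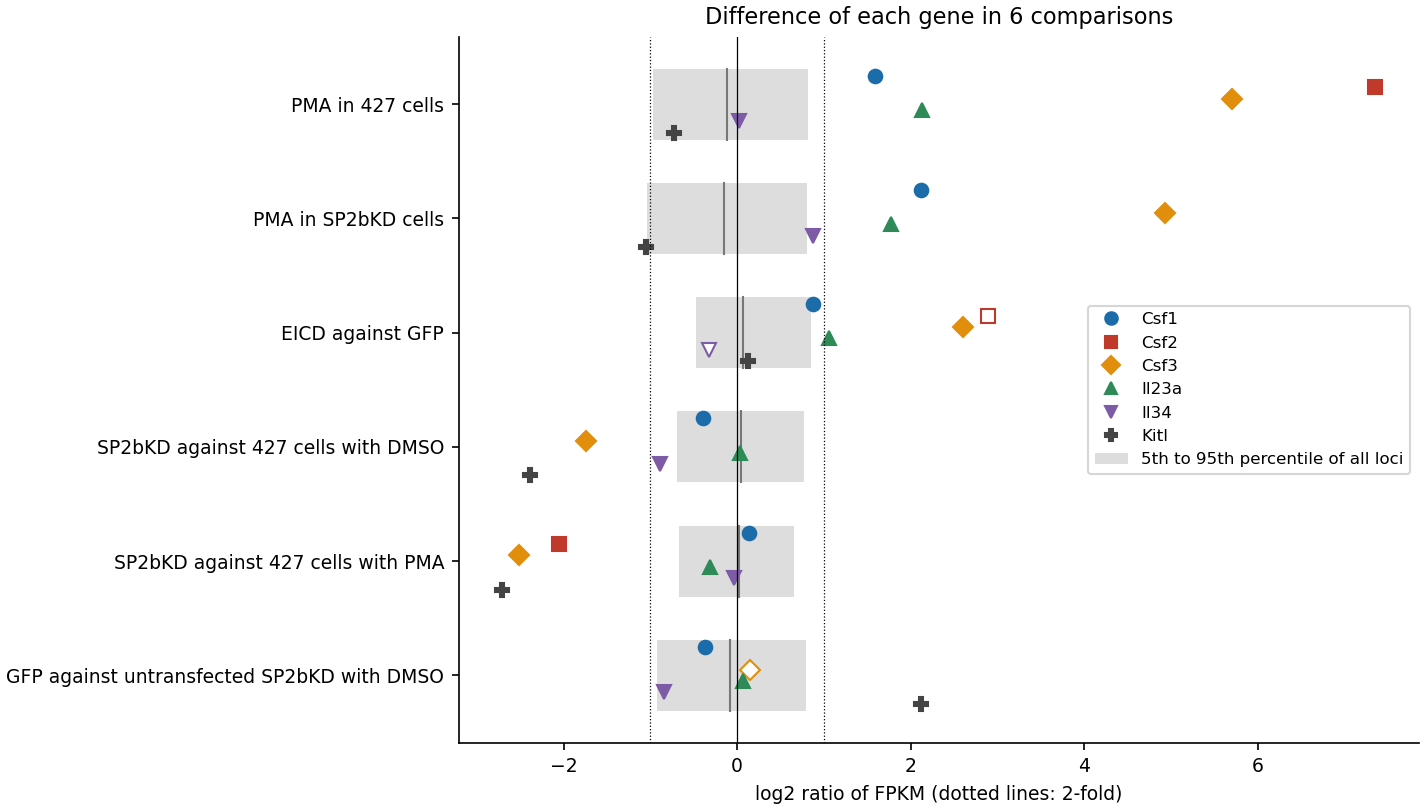
Log2 ratio of FPKM of each gene (marks) in the 6 comparisons, 1 library per condition, beside the 5th to 95th percentile (grey boxes) and the median (grey line) of all loci that passed. Open marks are genes under an FPKM of 1 in both libraries, and Csf2 is not drawn where a library was listed at 0 or, for SP2bKD against 427 cells with DMSO, where both were near 0. Csf3 lies beyond the boxes in 5 comparisons. Csf1, Il23a, Il34 and Kitl change sign in some comparisons of single libraries when each library is scaled to the same FPKM sum, which also moves the median of all loci.

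The loci with the most similar profile over the 6 libraries were named for each gene by the root mean square difference of log2(FPKM + 0.1), each profile centred on its own mean, among 11062 loci that reached an FPKM of 1 somewhere. Csf2 and Csf3 were near each other, at 0.454, Csf2 being the nearest of all loci to Csf3 and Csf3 the second nearest to Csf2. Csf2 was under the added 0.1 FPKM in 427 cells with DMSO (0.0578), the SP2bKD library with DMSO (0) and the GFP library (0.0620). Its distances thus rest in part on the added amount, and no other amount was tried for them. The nearest to Csf2 were Gm1045 (0.434), Csf3, Nppb (0.698), Calcb (0.934) and Sema7a (0.993). The nearest to Csf3 after Csf2 were Gm1045 (0.556), Sema7a (0.835), Nppb (0.837) and Neurl3 (0.859).

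Csf1 and Il23a had closer neighbours, and each other at some distance. The nearest to Csf1 were Pdgfb (0.166), a platelet-derived growth factor gene, Arhgef3 (0.186), Sgms2 (0.195), Mast4 (0.226) and Cx3cl1 (0.230), a membrane-bound chemokine. The nearest to Il23a were Ikbke (0.182), a kinase of innate immune signalling, Slco2a1 (0.196), Rbpj (0.227), Maff (0.242) and Tmcc3 (0.248). Il23a was the 32nd nearest locus to Csf1, at 0.379, and Csf1 the 52nd nearest to Il23a.

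The remaining genes had neighbours of other kinds. The nearest to Il34 were Tmsb4x (0.237), Mfap3l (0.246), Cldn23 (0.251), Ptger4 (0.266) and Ankrd1 (0.269). The nearest to Kitl were Fam25c (0.225), Bmp7 (0.289), Hopx (0.338), Sulf2 (0.369) and Pof1b (0.439). No other gene of the 6 was among these lists. With 6 libraries, likeness of profile is a description only.

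Of the 10 receptor genes for these ligands, 3 reached an FPKM of 1 in some library. Csf1r, the receptor kinase of both Csf1 and Il34, had an FPKM of 7.35 and 4.85 in 427 cells with DMSO and PMA, 6.10 and 5.22 in the libraries labelled SP2bKD, and 2.46 and 2.37 with GFP and GFP plus EICD. It was thus lowest in the transfected pair, as was Il34. Ptprz1, a receptor phosphatase that binds Il34, had an FPKM of 1.97 and 1.80 in 427 cells, 5.03 and 4.86 in the libraries labelled SP2bKD, and 5.35 and 8.64 with GFP and GFP plus EICD. Sdc1, the heparan sulphate proteoglycan syndecan-1, which also binds Il34, was between 221 and 455 FPKM.

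The other receptors were at or near 0. Kit, the receptor of Kitl, and Csf3r, the receptor of Csf3, were listed at 0 in all 6 libraries, and Csf2ra, Csf2rb and Csf2rb2 had at most 0.0207 FPKM. For interleukin-23, Il23r had 0.142 to 0.383 FPKM and Il12rb1 at most 0.0890. Csf1r is also a macrophage marker, and beside it Cd68 was the only one of the 6 myeloid markers that reached an FPKM of 1, the summed level of the 6 being 4.48 to 8.69 FPKM. Adgre1 was listed at 0 in every library and Spi1 in 5. The mast cell markers were listed at 0 in 4 of 4 cases, and the fibroblast and endothelial markers had at most 0.274 and 0.243 FPKM.

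None of the 3 receptors that passed stood more than 2-fold apart with PMA in either line or with EICD. Of all loci, at most 3.91% were higher and at most 5.69% lower in these comparisons. Ptprz1 was higher in the libraries labelled SP2bKD than in 427 cells, with a log2 ratio of 1.35 with DMSO and 1.42 with PMA. Of all loci, 3.11% with DMSO and 2.19% with PMA were more than 2-fold higher there. Csf1r was lower in the GFP library than in the untransfected one labelled SP2bKD, with a log2 ratio of −1.31, where 4.14% of all loci were lower.

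**Figure D5:**
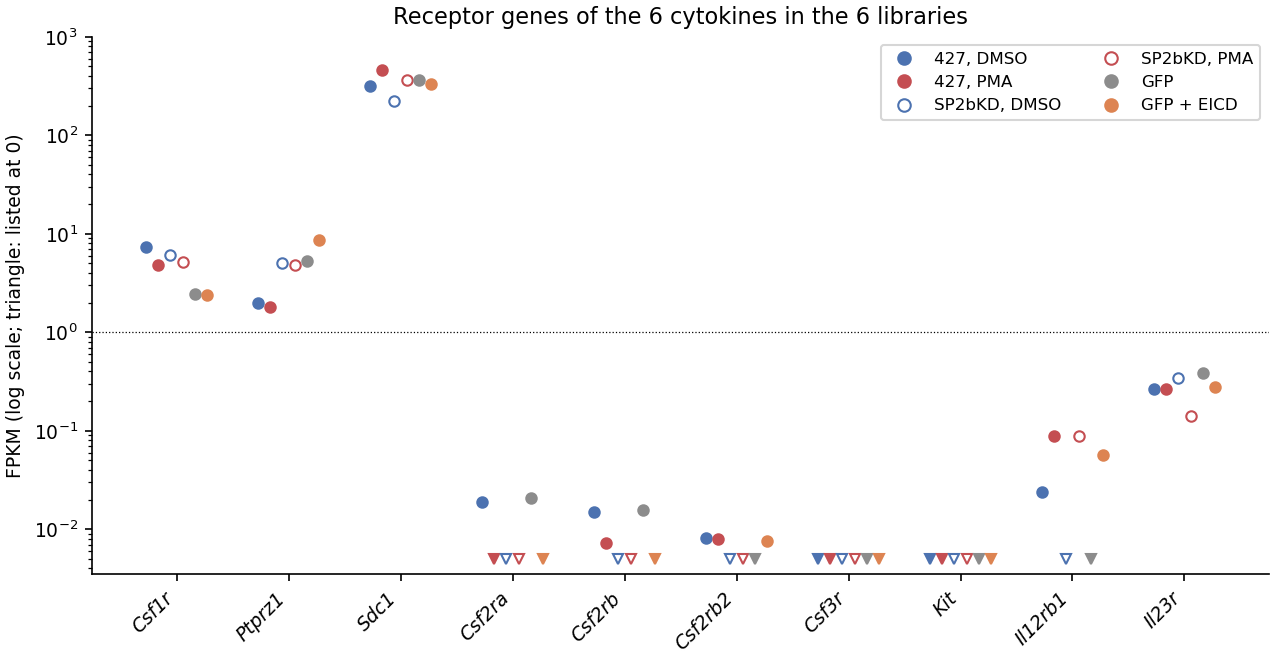
FPKM (log axis) of the 10 receptor genes of the 6 cytokines in the 6 libraries, 1 point per library, with triangles at the foot for values listed at 0 and a dotted line at an FPKM of 1. Csf1r, Ptprz1 and Sdc1 lie above the line, while Kit and Csf3r were listed at 0 in all libraries.

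Interleukin-23 needs a partner subunit encoded by Il12b, which was listed at 0 in all 6 libraries although Il23a reached 26.7 FPKM. Il12a and Ebi3, subunits of related cytokines, were also listed at 0 throughout. Of 16 partner and related ligand genes in the files, 6 reached an FPKM of 1 in some library. In 427 cells 3 of the 5 that passed were more than 2-fold higher with PMA and 0 lower, with a median log2 ratio of 1.32. Of all loci 3.91% were higher and 4.67% lower, and the list was chosen with earlier results of these data known. Il11 passed only through its PMA library. Lif, the leukaemia inhibitory factor, was at 129 against 11.9 FPKM (log2 ratio 3.44), Clcf1, a related cytokine, at 51.1 against 20.4 (1.32) and Il11 at 1.24 against 0.452 (1.44).

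In the libraries labelled SP2bKD, 1 of the 4 that passed, Lif, was higher with PMA, where 3.51% of all loci were. It was at 49.3 against 6.40 FPKM (log2 ratio 2.94). Against 427 cells, 2 of 5 were lower with PMA, where 2.75% of all loci were, Lif with a log2 ratio of −1.38 and Il11 with −1.36. Il11, at 0.479 against 1.24 FPKM, passed only through the 427 library. With DMSO 0 of 4 differed by more than 2-fold, where 3.11% of all loci were higher and 2.76% lower. With EICD 1 of 5 was higher, where 3.58% of all loci were, Lif at 63.0 against 21.8 FPKM (log2 ratio 1.53). Lif thus stood on the same side as Csf3 in these comparisons. In the GFP library, Lif and Il7 were higher than in the untransfected one labelled SP2bKD, with log2 ratios of 1.77 and 1.60, where 3.56% of all loci were higher. Il7, at 1.18 against 0.382 FPKM, passed only through the GFP library.

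Of the genes of JAK-STAT signalling and its feedback, 13 of the 14 in the files reached an FPKM of 1. Over the 6 comparisons, 2.19% to 3.91% of all loci were more than 2-fold higher and 0.506% to 5.69% lower. Counts of 0 or 1 gene are too small to set this list apart from all loci. Socs1 and Stat5a, where named below, reached an FPKM of 1 in only 1 library of the pair. With PMA in 427 cells 0 of 13 passed 2-fold in either direction. With PMA in the libraries labelled SP2bKD 1 of 13 was higher, the feedback inhibitor Socs1 (2.65 against 0.796 FPKM, log2 ratio 1.72), and 1 was lower, the transcription factor Stat5a (0.534 against 1.13 FPKM, log2 ratio −1.06). With EICD 0 of 13 were higher and 1 lower, Socs1 (0.439 against 1.23 FPKM, log2 ratio −1.45). Between the cell labels 0 of 12 passed 2-fold with DMSO or with PMA, and in the GFP library 1 of 13 was higher than in the untransfected one labelled SP2bKD, the feedback inhibitor Socs3 (13.8 against 3.19 FPKM, log2 ratio 2.11).

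Of 6 listed sheddase genes, 3 reached an FPKM of 1, and these were even across the libraries. Adam17, whose product releases several membrane-anchored cytokines, had an FPKM of 33.5 to 37.5, Adam10 of 45.4 to 60.1 and Adam9 of 32.4 to 46.7. In the 6 comparisons 0 of these 3 passed 2-fold, where at most 3.91% of all loci were higher and at most 5.69% lower. The other members stayed under an FPKM of 1. Among them Mmp9, a secreted metalloproteinase, was at 0.978 with PMA against 0.188 FPKM with DMSO in 427 cells, at 0.454 against 0.0713 in the libraries labelled SP2bKD, and at 0.0249 and 0.0224 with GFP and GFP plus EICD. Adam19 had at most 0.108 FPKM and Adam33 at most 0.0931. Protein release of Csf1 or Kitl was not analysed here.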

How the data were processed

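RNA was sequenced as 100-base read pairs from a TruSeq RNA kit in 6 libraries, 1 per condition. The authors aligned reads to GRCm38 with Tophat (2.1.1), computed FPKM with Cufflinks (2.1.1) and normalized with Cuffdiff (2.1.1), and the deposited files give FPKM for each locus. The submitters' processing notes also list STAR (2.4.0b), without its role. FPKM depends on the assembled gene models, and counts were not analysed here.

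Groups came from the sample labels. The members and the gene lists were chosen with earlier results of these data known. From the deposited FPKM, log2 ratios were computed with Python 3.11.15, NumPy 2.4.6 and pandas 2.3.3, adding 0.01 to both libraries. For EICD, the addition was made only on the EICD side, and loci under 0.01 FPKM with GFP were left out. Counts used loci that had a symbol and reached an FPKM of 1 in either library, with a threshold of 2-fold. No p-value was computed. Plots were drawn with matplotlib 3.10.9.

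All 6 genes were named, with list genes at an FPKM of 1 or more and the 5 loci of nearest profile per gene. List genes under that level were named with their values where they are the receptor, a subunit or a defining marker. Fragments per library were estimated from the steps of the lowest FPKM values with genes having a single transcript of over 2500 bases. Fragments per gene were upper estimates, taken over the longest transcript. The depth and ratio steps were tested on simulated data. The alternatives were other added amounts, minimum FPKM values and scalings. The study's p-values and protein array were not used here.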

Additional observations from a re-analysis of the deposited data

Results flagged for a closer look

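For 2 genes the difference between the lines had opposite signs without and with PMA, each from single libraries. For Csf1 the library labelled SP2bKD stood at a log2 ratio of −0.40 to 427 cells with DMSO and of 0.14 with PMA. For Il23a the values were 0.04 with DMSO and −0.32 with PMA. Neither difference was tested, since each condition had 1 library, and all 4 values were under 2-fold. With each library scaled to the same FPKM sum, both values of Csf1 were positive, at 0.57 with DMSO and 1.38 with PMA. That scaling put the median of all loci at 1.01 with DMSO and 1.26 with PMA. Csf1 thus lay below the median with DMSO and near it with PMA. The value of Il23a with DMSO turned negative, to −0.02 and −0.01, with upper quartile and median scaling.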

How the results depend on the processing

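Of 177 ratios of the 6 genes under other settings, 8 changed sign and 12 crossed 2-fold. The number of genes past 2-fold with PMA in the cells labelled SP2bKD was 5, and 3 at a minimum FPKM of 10. For SP2bKD against 427 cells with DMSO it was 2, and 1 with 1 FPKM added or with scaling to the sum, and 0 at a minimum FPKM of 10. For EICD it was 2, and 1 under each of these 3 settings. For GFP against the untransfected library it was 1, with 2 at no minimum and 0 at a minimum of 10. The median difference in PMA ratio between the lines was 0.32, and −0.14 with 1 FPKM added and 0.00 with scaling to the sum. The cause was not tested. For the other counts, those of PMA in 427 cells and of the lines with PMA, the number past 2-fold stayed within 1.5 times. Scaling to the sum turned the latter from 0 higher and 3 lower to 2 higher and 2 lower. It also put the median of all loci in that comparison at 1.26, and the 2 higher genes lay near it. Kitl with PMA in the cells labelled SP2bKD was at −0.94, −0.45, −0.95 and −0.94 with 0.1 added, 1 added, sum scaling and median scaling. Csf3 in those cells against 427 cells with DMSO was at −0.81 with 1 added and −0.72 with sum scaling. The latter scaling put the median of all loci in that comparison at 1.01. Depth limits Csf2, whose resting values are about 1 fragment or none. No paired analysis was possible because the groups compared share only replicate number 1. A fit of PMA and line as additive terms over the 4 untransfected libraries, which would take the difference between lines as error, was not made.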
